A study of Mus musculus with 6 samples.

Results

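The circadian clock genes Arntl, Clock, Npas2, Per1, Per2, Per3, Cry1, Dbp, Nr1d1 and Nr1d2 were examined in mouse mammary glands. They were selected by symbol, as core genes of the clock, from the 34590 symbols of the deposited count table. All 10 were in the table, and all 10 were among the 17345 genes that passed the filter on low counts. Inguinal glands (number 4) of 3 host mice were profiled by RNA-seq. WT.EGFP+ epithelium was always on the left of a mouse and Adamts18-/-.EGFP+ epithelium on the contralateral right, and the effects of genotype and of side cannot be told apart. The donor epithelium of both genotypes expressed EGFP from a chicken β-actin promoter, which is active in most cell types, and grafts in this study were made into WT females whose own epithelium had been removed. The study describes 3 different donors in 3 independent experiments, so host, donor and experiment cannot be told apart either. The age of these hosts and the time of day at which the glands were taken are not given in the sources used here.

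The mammalian clock is a feedback loop that runs in nearly every cell. The Arntl protein (Bmal1) pairs with Clock or its relative Npas2 and activates genes with E-box sequences, among them the Per, Cry, Nr1d and Dbp genes. Per and Cry proteins then repress their own activators, and Nr1d1 and Nr1d2 (Rev-erb alpha and beta) repress Arntl and Npas2. As a result, Arntl and Npas2 mRNA peak at about the opposite time of day from Dbp, Per3 and Nr1d1 mRNA in most tissues, whereas Clock mRNA varies little. The mammary gland has such a clock, and Per1 is in addition induced by glucocorticoids and by acute stimuli.

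Total counts lay between 53875123 and 71595924 per library, and no libraries were near-identical. A count of 3, the most that a count of 0 allows, was worth 0.0430 to 0.0574 CPM (counts scaled to a common library total, with the TMM method of edgeR). The labels describe sorted GFP-positive mammary epithelial cells, but the text of the study speaks of glands, and RNA of other cells was abundant. Summed over each list, 6 fibroblast markers reached 8015 to 10870 CPM and 6 adipocyte markers 3819 to 9479 CPM, against 599 to 1257 CPM for 24 pan-epithelial genes. The glands of mouse 3 stood apart: on the first principal component, with 60.4% of the variance, its WT and Adamts18-/- glands lay at 41.6 and 87.2 and the other 4 glands between -42.0 and -20.9. Some of the results below are therefore also given without mouse 3 or without its Adamts18-/- gland. Not every result that these omissions change is given in that way.

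The genes were located in GRCm38 (GENCODE M21). The activators are Arntl at chr7:113207465-113314126 (plus strand), Clock at chr5:76209868-76304792 (minus strand) and Npas2 at chr1:39193731-39363236 (plus strand). The repressors are Per1 at chr11:69095217-69109960 (plus strand), Per2 at chr1:91415982-91459324 (minus strand), Per3 at chr4:151003652-151044665 (minus strand) and Cry1 at chr10:85131700-85185064 (minus strand). The Rev-erb and output genes are Nr1d1 at chr11:98767932-98775333 (minus strand), Nr1d2 at chr14:18204054-18239127 (minus strand) and Dbp at chr7:45705088-45710203 (plus strand).

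Promoter windows, from 250 bases before to 50 bases after an annotated start site, were taken from RefSeq (GRCm38.p6) and matched by symbol for 9 of the 10 genes (not Per2). There were 13 windows, because Clock has 3 start sites and Arntl and Per1 have a pair each. The following elements through which clock factors act were searched on both strands: the E-box CACGTG (bound by Arntl with Clock or Npas2), the D-box TTATGTAA (bound by Dbp) and the core TAGGTCA of the element bound by Nr1d and Ror proteins. The cAMP response element TGACGTCA, which is not an element of these factors, was searched as well. The letters were found in the windows of Per1, Cry1, Per3 and Arntl. The 250 bases upstream of the start site are shown for the first 3 of these because they carry the matches, which are in capitals. They are Per1 at chr11:69098699-69098948 (plus strand), Cry1 at chr10:85185055-85185304 (minus strand) and Per3 at chr4:151044666-151044915 (minus strand).
Per1: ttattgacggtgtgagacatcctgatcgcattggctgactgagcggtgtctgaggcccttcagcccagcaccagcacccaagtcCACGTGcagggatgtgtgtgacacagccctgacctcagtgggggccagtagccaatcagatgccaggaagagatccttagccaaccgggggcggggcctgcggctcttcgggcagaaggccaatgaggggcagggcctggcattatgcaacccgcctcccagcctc
Cry1: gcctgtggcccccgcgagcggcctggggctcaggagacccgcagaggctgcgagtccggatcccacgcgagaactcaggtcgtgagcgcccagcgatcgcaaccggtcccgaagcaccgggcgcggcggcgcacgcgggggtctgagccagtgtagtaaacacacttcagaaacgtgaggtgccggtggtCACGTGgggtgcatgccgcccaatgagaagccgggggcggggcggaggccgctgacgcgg
Per3: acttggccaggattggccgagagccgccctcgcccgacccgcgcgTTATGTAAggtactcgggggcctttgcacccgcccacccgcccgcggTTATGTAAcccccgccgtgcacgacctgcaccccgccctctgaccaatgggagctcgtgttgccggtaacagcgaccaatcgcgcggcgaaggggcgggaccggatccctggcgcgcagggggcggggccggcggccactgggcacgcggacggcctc

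Per1 and Cry1 each held 1 E-box, beginning at position -166 and position -60 relative to the start site. Per3 held 2 D-boxes, at positions -205 and -158. The Nr1d and Ror core in Arntl began at base 31 after a start site, and its surroundings at chr7:113207530-113207559 (plus strand) are shown because Arntl had the largest fold change between hosts among the members.
Arntl: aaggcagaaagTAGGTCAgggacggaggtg
Among all 32851 windows of this length, 7.15% held the E-box, 0.938% the D-box, 2.61% the Nr1d and Ror core and 1.79% the cAMP response element, which no member window held. A match of letters is a description of the sequence, and no match says only that these letters were not in these windows.

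Levels were compared between genes per kilobase of exon (GENCODE M21, GRCm38), since a longer transcript collects more reads. Dbp was the highest, at 55.9 ± 10.5 CPM per kb (SD over the 6 glands), and was followed by Nr1d1 at 53.2 ± 10.7, Per1 at 41.8 ± 11.7, Nr1d2 at 40.7 ± 7.43, Per2 at 26.0 ± 7.38 and Per3 at 19.6 ± 3.50 CPM per kb. Each of these 6 overlapped its neighbour in the order. Cry1, at 4.75 ± 0.715 CPM per kb, and Clock, at 4.50 ± 0.166 CPM per kb, lay below all of them in every gland and overlapped each other. Arntl (0.749 ± 0.489 CPM per kb) and Npas2 (0.302 ± 0.142 CPM per kb) were the lowest and overlapped each other but no other member. The 6 genes with the highest levels were thus the Per, Nr1d and Dbp genes, and the 2 lowest were the partners Arntl and Npas2. For Dbp, 18% of the exonic bases also belong to Sphk2 on the other strand, and for Nr1d1 8.55% also belong to Thra on the other strand. The counting is not stated to use strand, so reads in these stretches cannot be assigned with certainty. Sphk2 had a log2 fold change of 0.10 between mouse 3 and mouse 1 and Thra one of -0.58.

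The first question was whether the hosts differed. Arntl, which encodes the activator Bmal1, was at 3.76 CPM (WT) and 4.11 CPM (Adamts18-/-) in mouse 1, at 3.56 and 2.61 CPM in those of mouse 2, and at 7.44 and 12.3 CPM in those of mouse 3. Both glands of mouse 3 were thus above all 4 glands of the other mice. Npas2, which encodes the alternative partner of Bmal1, was at 0.903 and 1.49 CPM, in the same order, in mouse 1, at 0.701 and 1.07 CPM in mouse 2, and at 2.17 and 2.34 CPM in mouse 3. It was again highest in both glands of mouse 3, on counts of 43 to 144 reads per gland. Clock, the main partner of Bmal1, lay between 60.0 and 66.3 CPM in all 6 glands, with those of mouse 3 at 61.3 and 60.9 CPM, inside the range of the others.

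The Per genes, which encode repressors, were lowest in mouse 3. Again with the WT gland first, Per1 was at 224 and 235 CPM in mouse 1, at 320 and 299 CPM in mouse 2, and at 188 and 146 CPM in mouse 3. Per2 was at 170 and 142 CPM in mouse 1, 196 and 193 CPM in mouse 2, and 129 and 82.6 CPM in mouse 3. For both genes, mouse 2 was the highest host and mouse 3 the lowest, and no host overlapped another. The hosts were free of overlap in Arntl, Dbp and Nr1d1 as well, but in another order. The share of all genes with hosts separated in this way was not computed. Per3 was at 213 and 209 CPM in mouse 1, 210 and 202 CPM in mouse 2, and 169 and 128 CPM in mouse 3, so that mice 1 and 2 overlapped and mouse 3 lay below them. Cry1, the partner of the Per proteins, was at 15.5 and 13.7 CPM in mouse 1, 17.5 and 19.9 CPM in mouse 2, and 14.0 and 14.6 CPM in mouse 3. It was highest in mouse 2, and mice 1 and 3 overlapped.

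The Rev-erb genes and the output gene Dbp were also lowest in mouse 3. Nr1d1 was at 205 CPM (WT) and 178 CPM (Adamts18-/-) in mouse 1, 169 and 172 CPM in mouse 2, and 153 and 106 CPM in mouse 3. Nr1d2 was at 236 and 246 CPM in mouse 1, 242 and 248 CPM in mouse 2, and 201 and 146 CPM in mouse 3. Dbp, which encodes a PAR bZIP transcription factor and is a direct E-box target, was at 198 and 190 CPM in mouse 1, 179 and 168 CPM in mouse 2, and 159 and 110 CPM in mouse 3. In each of these 3 genes both glands of mouse 3 were below the other 4 glands.

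**Figure D1:**
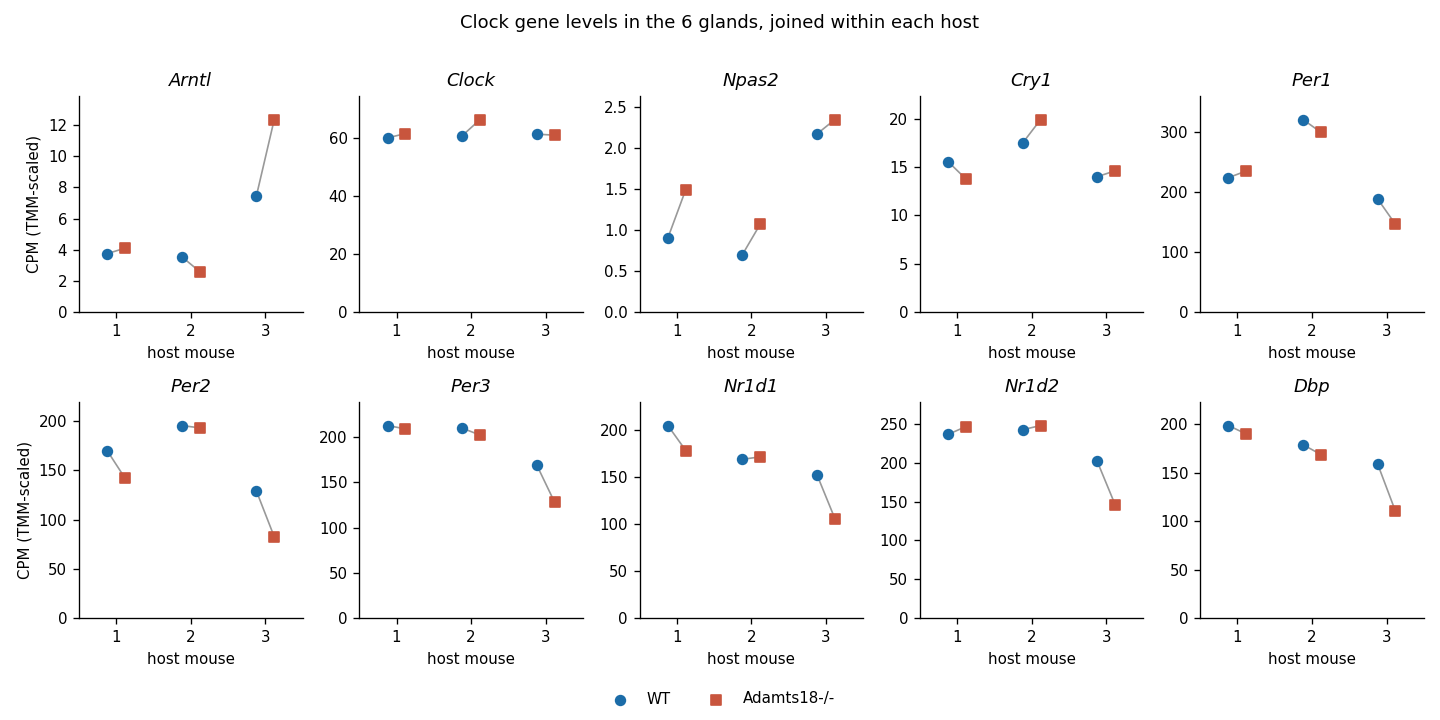
Level of each clock gene (CPM, TMM-scaled, linear axes from 0) in the WT (blue circles) and Adamts18-/- (red squares) gland of host mice 1, 2 and 3, with a line joining the contralateral glands of a host. Arntl and Npas2 are highest and the Per, Nr1d and Dbp genes lowest in mouse 3, and Clock is level at 60.0 to 66.3 CPM.

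In all, 2 members had both glands of mouse 3 above the other 4 glands and 6 had both below, 8 of 10 members. Over all tested genes, 48.3% had the glands of mouse 3 on one side in this way (24.2% above and 24.1% below), so the members' share stood beside a high background. The test across the 3 hosts (edgeR's quasi-likelihood F test, with genotype as a covariate) left no member with an adjusted p under 0.05 (0 of 10), against 0.628% of all genes. At an unadjusted p under 0.05 there were 7 of 10, against 27.2% of all genes: Per1 (unadjusted p = 0.00469), Arntl (0.00789), Npas2 (0.00953), Per2 (0.0101), Per3 (0.0237), Nr1d1 (0.0351) and Dbp (0.0397). With DESeq2's likelihood ratio test, 7 of 10 members had an adjusted p under 0.05, against 19.2% of all genes. They were Arntl, Per1, Per2, Per3, Dbp, Nr1d1 and Nr1d2. Over the alternatives the adjusted p of Arntl lay between 1.89e-04 and 0.592 and that of Per1 between 2.93e-06 and 0.448.

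Between single hosts, Per1 was the member that passed. It fell by 0.89 on the log2 scale from mouse 2 to mouse 3 (standard error 0.14, Benjamini-Hochberg adjusted p = 0.0427, quasi-likelihood test in edgeR), a fold change of 0.538. This was 1 of 10 members, against 6.28% of all genes called and 3.33% called lower. Without mouse 1 the change of Per1 was -0.91 (adjusted p = 0.104), without the Adamts18-/- gland of mouse 3 it was -0.72 (adjusted p = 0.050017), and with scaling to the pan-epithelial genes it was -1.38 (adjusted p = 0.194). Its adjusted p over the alternatives lay between 5.25e-07 and 0.194. Next in this contrast, and short of the threshold, were Per2 at -0.91 ± 0.17 (log2 fold change ± standard error; adjusted p = 0.0530), Npas2 at 1.38 ± 0.27 (adjusted p = 0.0572) and Arntl at 1.65 ± 0.32 (adjusted p = 0.0573). The count moved with the method: it was 6 of 10 with DESeq2 (18.9% of all genes), 4 without the filter on low counts (6.85%), and 2 with a minimum of 10 counts in every sample (7.03%), with limma-voom (6.86%) or with no genotype term (11.5%). It was 0 with pan-epithelial scaling (3.73%) and without mouse 1 (0.114%). Without the Adamts18-/- gland of mouse 3 it was 1 (6.16%), Npas2, at 1.66 (adjusted p = 0.0496). In that fit Dbp and Nr1d1 were at -0.16 and -0.20 on the log2 scale, against -0.39 and -0.42 with all 6 glands.

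From mouse 1 to mouse 3, no member passed (0 of 10, against 1.61% of all genes; 8 of 10 at an unadjusted p under 0.05, against 28.8% of all genes, and 7 of 10 by adjusted p with DESeq2, against 16.5%). Arntl was at 1.32 ± 0.32 on the log2 scale (± standard error; adjusted p = 0.0944) and Npas2 at 0.96 ± 0.27 (adjusted p = 0.109). The log2 fold changes of Per1, Per2, Per3, Dbp, Nr1d1 and Nr1d2 lay between -0.58 and -0.46, and those of Clock and Cry1 were 0.01 and -0.04. Without the Adamts18-/- gland of mouse 3, Arntl was at 0.84 and the same 6 genes lay between -0.37 and -0.23. Between mouse 1 and mouse 2, no member passed (0 of 10, against 0 of all 17345 genes), 1 member, Per1, had an unadjusted p under 0.05, against 6.87% of all genes, and DESeq2 called 0 members, against 1.32% of all genes. Here Per1, Per2 and Cry1 had log2 fold changes of 0.43, 0.33 and 0.35, with adjusted p of 0.644, 0.852 and 0.734, and Npas2 and Arntl had -0.42 and -0.34, with adjusted p of 0.927 and 0.980.

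**Figure D2:**
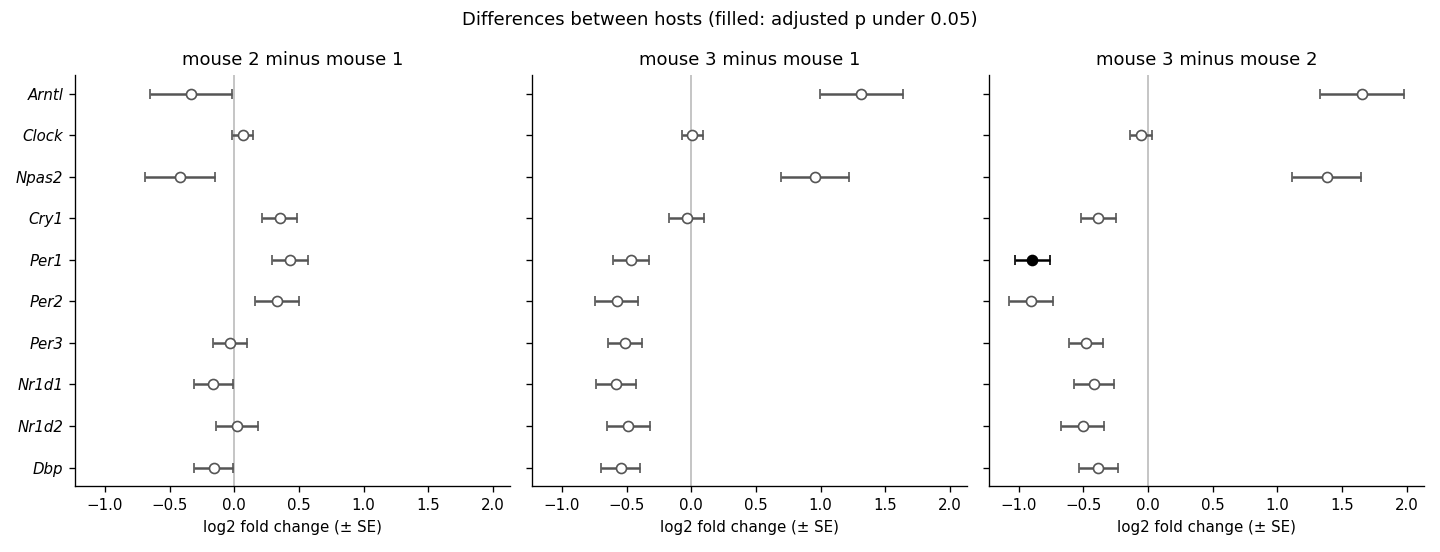
Log2 fold change (x axis, ± SE) of each clock gene between hosts, from the edgeR fit with genotype as a covariate; filled points have an adjusted p under 0.05. Arntl (1.32 and 1.65) and Npas2 (0.96 and 1.38) lie to the right and the Per, Nr1d and Dbp genes to the left in both contrasts of mouse 3, and Per1 from mouse 2 to mouse 3 (-0.89) is the filled point.

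The share of variance in log2 CPM was divided between the mouse, the genotype and the rest. The mouse took a median of 79.1% over the members and 67.3% over all genes. It took 91.5% in Per1, 88.9% in Arntl, 83.8% in Cry1 and 81.6% in Npas2, and least in Clock (34.6%).

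Ratios of counts of 2 genes within a library do not depend on scaling. The count of Dbp was 52.8 and 46.1 times that of Arntl in the WT and Adamts18-/- glands of mouse 1, 50.3 and 64.6 times in mouse 2, and 21.4 and 8.91 times in mouse 3. The count of Per2 over Arntl was 45.2 and 34.5 in mouse 1, 55.0 and 74.1 in mouse 2, and 17.4 and 6.69 in mouse 3. For both ratios mouse 3 lay below the other hosts, and its Adamts18-/- gland was the lowest of the 6. The count of Per3 over Npas2 was 236 and 140 in mouse 1, 299 and 189 in mouse 2 and 78.2 and 54.7 in mouse 3. Each of these ratios set a gene that was low in mouse 3 over one that was high there. The count of Dbp over Clock, which was level between hosts, separated mouse 3 less. It was 3.31 and 3.08 in mouse 1, 2.94 and 2.54 in mouse 2, and 2.59 and 1.81 in mouse 3. Mice 2 and 3 thus overlapped in this ratio. These ratios are of counts and not per length, so only their change between glands is of use.

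The second comparison, between the contralateral glands of each host, concerned the genotype of the epithelium. The thresholds of the study were applied to the quasi-likelihood test of edgeR, in which each mouse was a block: a fold below 0.8, or above the reciprocal of 0.8, together with unadjusted p below 0.05. No member passed (0 of 10, against 3.01% of all genes, with 1.84% lower and 1.17% higher). None (0) had an unadjusted p under 0.05 either, against 3.86% of all genes, and DESeq2 called 0 members, against 3.67%. The within-host difference had the same sign in all 3 mice for 4 of 10 members, namely Npas2 (higher in the Adamts18-/- gland) and Per2, Per3 and Dbp (lower), against 23.4% of all genes. In no member were the 3 WT and the 3 Adamts18-/- glands free of overlap (0 of 10, against 4.94%). The adjusted p over all genes was between 0.987 and 0.991 for the 10 members.

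Per2 came nearest, at 165 ± 33.4 CPM in the WT group and 139 ± 55.3 CPM in the Adamts18-/- group (SD, n = 3 each). Its fold change was 0.808 (95% interval 0.629 to 1.04, unadjusted p = 0.0802, edgeR) and its value was lower in the Adamts18-/- gland of all 3 mice. Npas2 was at 1.26 ± 0.794 and 1.64 ± 0.647 CPM (SD, n = 3 each), higher in the Adamts18-/- gland of all 3 mice, with a fold change of 1.39 (95% interval 0.933 to 2.06, unadjusted p = 0.0864, edgeR). Clock was at 60.6 ± 0.647 and 62.9 ± 2.96 CPM (SD, n = 3 each). Its interval, 0.916 to 1.17, was the narrowest of the members. Arntl was at 4.92 ± 2.19 and 6.36 ± 5.24 CPM (SD, n = 3 each), and its interval of 0.690 to 1.78 spanned values on both sides of 1.

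The other members had fold changes between 0.850 and 1.02. Per1 was at 244 ± 68.2 and 227 ± 76.8 CPM, Per3 at 197 ± 24.3 and 180 ± 44.8 CPM, and Cry1 at 15.7 ± 1.75 and 16.1 ± 3.33 CPM in the WT and the Adamts18-/- group (SD, n = 3 each). Dbp was at 179 ± 19.7 and 156 ± 41.2 CPM, Nr1d1 at 176 ± 26.8 and 152 ± 40.0 CPM, and Nr1d2 at 227 ± 22.1 and 213 ± 58.4 CPM (SD, n = 3 each). These SDs include the spread between hosts, which the paired test sets aside. The 95% intervals reached down to 0.677 for Nr1d1 and 0.686 for Dbp, so decreases of that size lay within the intervals.

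Within single hosts, Arntl and the 6 Per, Nr1d and Dbp genes differed most between the glands of mouse 3, and Npas2, Clock and Cry1 did not. The share of all genes that differed most in mouse 3 was not computed, so this is a description of the members only. In mouse 3 the Adamts18-/- gland had 0.775 times the Per1 level of its WT counterpart (95% interval 0.754 to 0.797 from the counts), 0.639 times the Per2 level (0.617 to 0.663), 0.757 times the Per3 level (0.734 to 0.780), 0.695 times the Nr1d1 level (0.673 to 0.718), 0.724 times the Nr1d2 level (0.704 to 0.744) and 0.693 times the Dbp level (0.671 to 0.715). Arntl was at 1.66 times its WT level (1.47 to 1.87). In mouse 1 the ratios of the same 6 Per, Nr1d and Dbp genes lay between 0.835 and 1.05, and in mouse 2 between 0.934 and 1.02. For Arntl they were 1.09 (0.910 to 1.32) in mouse 1 and 0.733 (0.594 to 0.904) in mouse 2. The ratio of Npas2 was 1.65 (1.17 to 2.34) in mouse 1, 1.53 (1.02 to 2.30) in mouse 2 and 1.08 (0.844 to 1.39) in mouse 3, so that it was nearest to 1 in mouse 3. Cry1 had ratios of 0.885, 1.14 and 1.04 and Clock of 1.02, 1.09 and 0.994 in mice 1, 2 and 3. These intervals are exact binomial ones and cover counting error only. With 1 gland per genotype in each host, a difference between hosts in the effect of genotype has no replicate and was not tested.

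**Figure D3:**
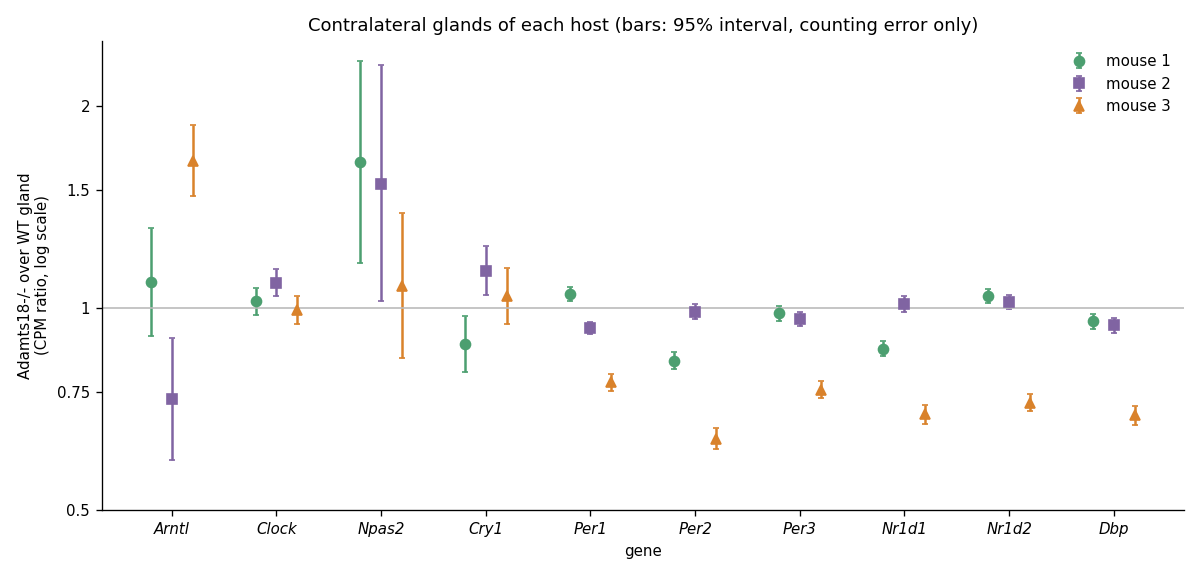
Ratio of the TMM-scaled level in the Adamts18-/- gland to that in the contralateral WT gland (y axis, log scale) for each clock gene in mice 1, 2 and 3; bars are 95% intervals for counting error only. The 6 Per, Nr1d and Dbp genes lie between 0.639 and 0.775 in mouse 3 and between 0.835 and 1.05 in the other hosts, and Arntl lies at 1.66 in mouse 3.

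The Adamts18-/- gland of mouse 3 was the highest of the 6 glands in Arntl and Npas2 and the lowest in the 6 Per, Nr1d and Dbp genes. Over all genes, this gland was the highest of the 6 in 33.0% and the lowest in 32.0%, together 65.0%. Without mouse 3, the fold change of Npas2 passed the thresholds (log2 fold change 0.68, unadjusted p = 0.0437, edgeR), 1 of 10 members against 4.99% of all genes, and the log2 fold change of Arntl became -0.15. Without only the Adamts18-/- gland of mouse 3, which leaves its host with 1 gland, Npas2 passed as well (1 of 10, against 5.02%). Without mouse 2, Per2 passed instead (log2 fold change -0.45, unadjusted p = 0.0336), 1 of 10 members against 3.04% of all genes. With scaling to the library size Per2 passed as well (log2 fold change -0.33, unadjusted p = 0.0468), 1 of 10 against 3.06%. The adjusted p over the alternatives lay between 0.707 and 1.0 for Npas2 and between 0.895 and 1.0 for Per2. With scaling to the 24 pan-epithelial genes, which raised the median log2 fold change of all genes to 0.33, all 10 members had a positive log2 fold change (median 0.20), and none passed (0 of 10, against 3.61%; 0 at an unadjusted p under 0.05). Relative to the shift of all genes, their median then lay 0.13 lower, as it did with TMM scaling (-0.13 for the members and 0.00 for all genes). Fewer cells of a type and less RNA per cell cannot be told apart in such bulk samples.

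A list of 21 other genes of the clock and its outputs was examined alongside. It held further repressors and kinases (Cry2, Csnk1d, Csnk1e), the Arntl activator Rora, relatives of Dbp (Tef, Hlf), the D-box repressor Nfil3, the E-box repressors Bhlhe40, Bhlhe41 and Ciart (listed under an older symbol), and rhythmic outputs such as Wee1, Usp2, Nampt and Tspan4. All 21 were tested. By genotype, none passed (0 of 21, against 3.01% of all genes). There were 0 at an unadjusted p under 0.05, against 3.86%, and DESeq2 called 1, against 3.67%. In the test across hosts none had an adjusted p under 0.05 (0 of 21, against 0.628% of all genes). At an unadjusted p under 0.05 there were 10, against 27.2%, and DESeq2 called 8 by adjusted p, against 19.2%. From mouse 2 to mouse 3, 1 of 21 passed, Nampt, which encodes the rate-limiting enzyme of NAD salvage, with a log2 fold change of -0.72 (adjusted p = 0.0413, edgeR; named after its values were seen, since it was the 1 gene called), against 6.28% of all genes. The count was 9 with DESeq2 (18.9% of all genes), and 0 with pan-epithelial scaling (3.73%) and without mouse 1 (0.114%). The median log2 fold change of the list was -0.42 from mouse 1 to mouse 3 and -0.39 from mouse 2 to mouse 3, against -0.48 and -0.40 for the 10 members and 0.01 and 0.00 for all genes. In 14 of the 21 both glands of mouse 3 were below the other 4, against 24.1% of all genes. In none (0) were both above, against 24.2%.

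Glucocorticoid-induced and immediate early genes, which share regulators with Per1, also differed between the hosts. The summed level of 7 glucocorticoid-induced genes (Fkbp5, Tsc22d3, Zbtb16, Sgk1, Dusp1, Klf9 and Errfi1) was 1087 and 801 CPM in the WT and Adamts18-/- glands of mouse 3 and 1814 to 2509 CPM in the other 4 glands. From mouse 2 to mouse 3, 4 of the 7 (Fkbp5, Zbtb16, Sgk1 and Klf9) fell with an adjusted p under 0.05, against 3.33% of all genes. The median log2 fold change was -1.26. In the test across the hosts 0 of the 7 passed, against 0.628% of all genes. From mouse 1 to mouse 3, 0 of the 7 passed as well, against 1.61%. By genotype none passed (0 of 7, and 0 at an unadjusted p under 0.05). The summed level of 8 immediate early genes was 334 and 335 CPM in mouse 3 and 672 to 2074 CPM in the other glands. Across hosts 2 of the 8 passed (edgeR's quasi-likelihood F test), Junb (adjusted p = 0.0426) and Egr1 (adjusted p = 0.0470), against 0.628% of all genes. From mouse 2 to mouse 3, 1 of the 8 was called lower, against 3.33% of all genes. From mouse 1 to mouse 3, 4 of the 8 were called lower, against 1.61% of all genes called in either direction. By genotype, all 8 had a positive log2 fold change, although in mouse 3 only 4 were higher in the Adamts18-/- gland. Of the 8, 4 were called, against 3.01% of all genes (1.17% called higher). These were Fos, Junb, Egr1 and Ier2, with log2 fold changes of 1.04, 0.39, 0.60 and 0.35 (unadjusted p of 0.0131, 0.00263, 0.00820 and 0.0254, edgeR). No gene at all had an adjusted p under 0.05 by genotype. Per1 had a log2 fold change of -0.13 by genotype (standard error 0.11) and did not pass. The part of these programmes in the host difference of the clock genes was not tested.

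The cellular make-up of the glands moved with the host too. In mouse 3, summed adipocyte markers were at 4935 and 3819 CPM, against 8181 to 9479 CPM in the other glands, and 6 B cell markers were at 143 and 685 CPM, against 10.3 to 16.8 CPM. T cell markers were at 146 and 377 CPM in mouse 3, against 24.5 to 57.3 CPM, and endothelial markers at 565 and 489 CPM, against 683 to 855 CPM. Pan-epithelial genes were at 1257 and 957 CPM in mouse 3 and 599 to 1060 CPM elsewhere. Skeletal muscle markers were at 330 to 3105 CPM in 4 glands and at 12194 and 12257 CPM in the Adamts18-/- glands of mice 1 and 2. By genotype, 6 of 7 myoepithelial markers were called lower in Adamts18-/- glands, against 1.84% of all genes. All 24 pan-epithelial genes had a negative log2 fold change in the fit over the 3 hosts, of which 2 were called. The direction was not shared by every host. In mouse 1 their summed level was higher in the Adamts18-/- gland (879 CPM) than in the WT gland (757 CPM). It was lower in the Adamts18-/- gland in mouse 2 (599 against 1060 CPM) and in mouse 3 (957 against 1257 CPM). Of the hormone-sensing luminal markers 2 of 6 were called lower, while 2 had a positive log2 fold change. Of the secretory luminal markers 1 of 5 tested was called lower. No gene of these lists was at 0 in all libraries. The part of this make-up in the clock gene values was not tested.

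**Figure D4:**
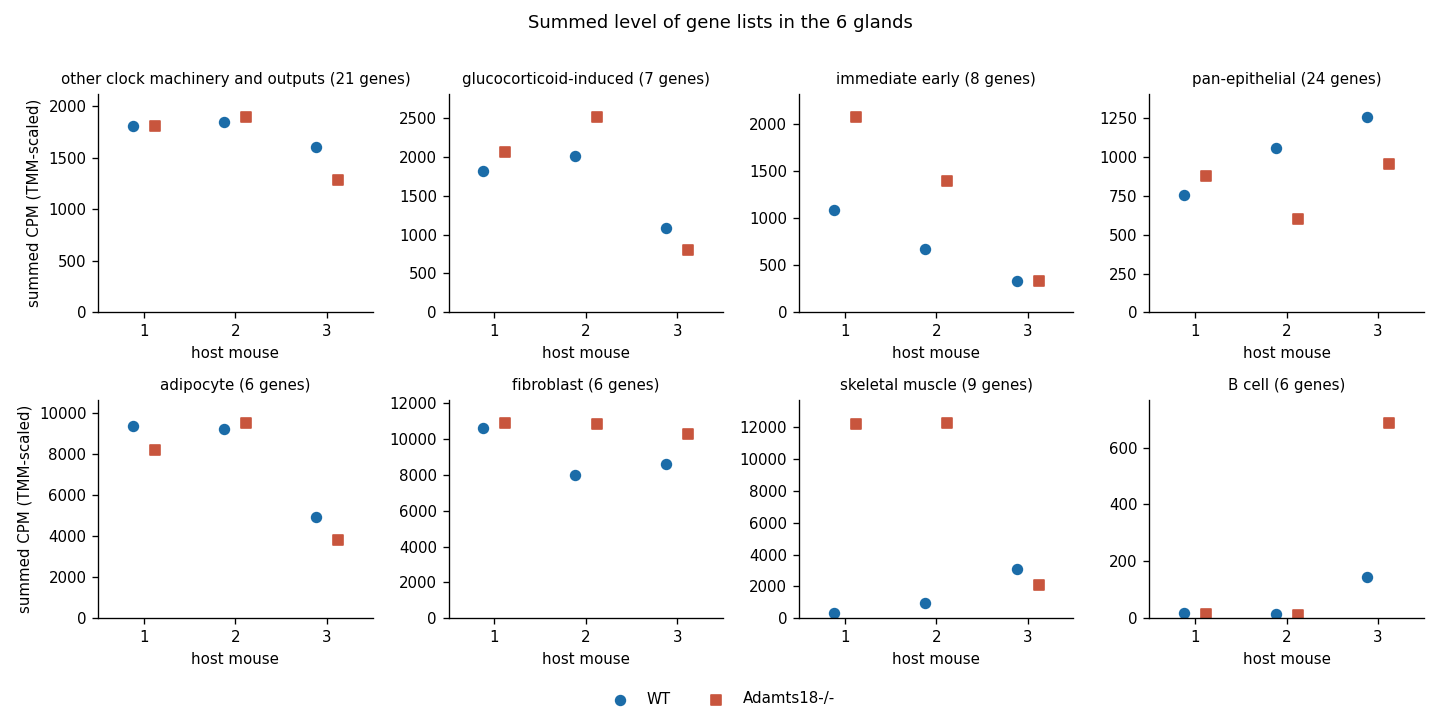
Summed level (CPM, TMM-scaled, linear axes from 0) of 8 gene lists in the WT (blue circles) and Adamts18-/- (red squares) gland of each host mouse. The other clock genes, the glucocorticoid-induced genes (801 to 1087 CPM) and the immediate early genes (334 and 335 CPM) are lowest in mouse 3, as are the adipocyte markers, whereas B cell markers are highest there.

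The genes whose log2 CPM followed a member most closely over the 6 glands were sought for Arntl and Dbp. For Arntl they were Eya3, 1700034F02Rik, Mrm1, Rps7 and Rpl13a, with Pearson's r of 0.997 to 0.999 (the reads of the ribosomal protein genes Rps7 and Rpl13a can be shared with near-identical pseudogenes). For Dbp they were Dpep1, Ano2, Trpv4, BC035947 and Fbxl16, with r of 0.995 to 0.998. Among the members, Nr1d1 (r = 0.985) and Per3 (r = 0.972) were the 33rd and 128th closest to Dbp of 17344 genes, and Arntl had a negative r with Dbp (-0.83), the 2590th most negative. Npas2 was the 3211th closest to Arntl (r = 0.83), and Per2 the 1013th most negative (r = -0.95), so values of this size were common among all genes. These values are a description of 6 glands from 3 hosts, which share host, depth and cellular make-up in pairs.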

How the data were processed

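The 6 libraries (3 WT and 3 Adamts18-/- grafts in 3 hosts) were single-end RNA-seq. The authors deposited raw counts per gene symbol. Per the labels' processing notes, bcl2fastq 2.18, TopHat2 2.0.11, featureCounts 1.6.2, edgeR and the mm9 build were named; the annotation and strand setting are not given in the sources used here. Gene coordinates and lengths here come from GRCm38 and were not mixed with mm9 positions. Counts were analysed in R 4.3.3 with edgeR 4.0.16 (filterByExpr, TMM, quasi-likelihood tests; design: genotype and mouse), with limma 3.58.1 and DESeq2 1.42.0 as alternatives. The scripts were tested on simulated counts. A genotype call needed a fold change under 0.8 or over 1.25 and an unadjusted p under 0.05; host calls needed an adjusted p under 0.05 (Benjamini-Hochberg over 17345 genes). The pairing follows from the shared hosts. Deviations of same-numbered glands from their group means correlated at 0.512, 0.505 and 0.639. No such correlation was computed for glands of different hosts, so these values do not test the pairing. P-values set a difference against the spread left after the genotype and mouse terms. For the host tests this is the left-over spread between contralateral glands, and each host is a single animal. A host p-value therefore says only that the pairs of glands differ beyond that spread. Alternatives were other scalings, filters and tools, omission of each mouse, and omission of the Adamts18-/- gland of mouse 3, chosen after seeing the data. Values were given by name for all members, some called genes of the other lists, and the overlapping genes Sphk2 and Thra. The 5 genes closest to Arntl and to Dbp were named with the range of r. Other genes were named without values or only counted within their lists. Members and lists were chosen with earlier results of these data known.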

Additional observations from a re-analysis of the deposited data

Results flagged for a closer look

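The difference in Arntl between the contralateral glands did not have the same sign in all hosts. On the log2 scale the Adamts18-/- gland minus the WT gland was 0.13 in mouse 1, -0.44 in mouse 2 and 0.73 in mouse 3. With 1 gland per genotype in each host, the difference between hosts was not tested.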

How the results depend on the processing

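Of the counts of clock genes called, the genotype count was 1 in place of 0 with library size scaling (Per2), without mouse 2 (Per2), without mouse 3 (Npas2) and without the Adamts18-/- gland of mouse 3 (Npas2), so leaving out each mouse gave 0 to 1. The count across hosts was 7 in place of 0 with DESeq2, as was that from mouse 1 to mouse 3. From mouse 2 to mouse 3 it was 1, and became 0 with pan-epithelial scaling and without mouse 1, 4 with no filter, 2 with at least 10 counts in every sample, 6 with DESeq2, 2 with limma-voom and 2 with no genotype term. The cause was not tested. Without the replicate block, 0 members passed by genotype, and over all genes 343 passed in place of 522.

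The following log2 fold changes took the opposite sign. Leaving out each mouse gave genotype values of -0.15 to 0.43 for Arntl, -0.0579 to 0.123 for Cry1 and -0.22 to 0.0540 for Nr1d2. Without the Adamts18-/- gland of mouse 3 they were -0.15 for Arntl and 0.0545 for Nr1d2. With pan-epithelial scaling the genotype values were 0.10 for Dbp, 0.10 for Nr1d1, 0.21 for Nr1d2, 0.20 for Per1, 0.0221 for Per2 and 0.17 for Per3, Per3 from mouse 1 to mouse 2 was 0.0169 and Clock from mouse 1 to mouse 3 was -0.45. Clock in that contrast was -0.00310 with no filter. With library size scaling, Clock from mouse 2 to mouse 3 was 0.0317, Cry1 from mouse 1 to mouse 3 was 0.0685 and Cry1 by genotype was -0.00141. Of the other values, 92 counts of calls (members and other clock genes) and 550 single-gene values kept their direction and side of the threshold. Depth limited Npas2 most, at 43 to 144 reads per gland.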
